A study of Caenorhabditis elegans with 41 samples.

Results

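The genes described here lie in the proximal interior of mnDp10, a duplication of the right end of the Caenorhabditis elegans X chromosome, between 13.3 and 15.5 Mb of X in genome version WS220 (ce10). Members were all listed genes of X that start at or right of 13.3 Mb and stop left of 15.5 Mb, a rule that uses position alone. It gave 362 of 20390 listed genes (1.78%), the first starting at base 13301530 and the last stopping at base 15497412. Of these, 345 were protein coding, 8 were pseudogenes and 9 had no match in the table of gene names. The stretch lies right of yDp11, a shorter X duplication of the same study, so SP117 was the strain of the study's mRNA-seq set that carried extra copies of these genes.

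The study asked whether extra copies of chromosome segments raise mRNA levels in C. elegans. Poly(A) mRNA was sequenced from whole animals with stranded libraries, and 17 libraries were compared here. SP117, with mnDp10 (X;I) attached to chromosome I in homozygous form and the allele unc-3(e151) on its X chromosomes, looks wild type and gave 2 libraries of mixed-stage embryos, 4 of larvae at L2-L3 and 3 of young adults. It was compared with 3 embryo libraries of VC100, which carries unc-112(r367) on chromosome V and the deletion gkDf2 on X, left of 12 Mb, and with 2 larval and 3 young adult libraries of BC4289, which carries the chromosome IV duplication sDp10 (IV;X). These strains carry no known duplication of 13.3 to 15.5 Mb, but each differs from SP117 by its own alleles as well, and the strain background cannot be told apart from the duplication. The labels number replicates without stating separate cultures, so the spread between libraries may be technical. Copy number itself was not analysed here.

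In hermaphrodites the X chromosomes are dosage compensated: a condensin-containing dosage compensation complex (DCC) binds the X chromosomes in somatic cells and lowers their transcription. In the germline the X chromosomes are kept largely silent by chromatin marks, and the germline makes up a growing share of the animal as larvae become adults. A homozygous duplication gives each of its genes as many extra copies as the pair of X chromosomes already carries, so a level in proportion to copy number would stand 1 log2 unit above genes of unchanged copy number.

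Levels are FPKM (mapped fragments scaled by transcript length and library size), and tests ran on log2(FPKM + 0.1) for genes with a mean of at least 1 FPKM over the libraries compared, which understates changes of low genes. The deviation of a gene is its log2 ratio of SP117 over the same-stage strain, minus the median log2 ratio of X genes with a stop below 12 Mb (1947 genes, the baseline). P-values and calls given beside deviations are for the log2 ratio itself, without subtraction of the baseline. The filter left 251 members in embryos, 248 in larvae and 218 in young adults, 174 of them at all 3 stages, while 72 members were tested at none and 6 of those were listed at 0 in all 17 libraries. Relative depth, read from the steps between low FPKM values, ranged from 11.5% to 100% of the deepest library, the shallowest being SP117 L2-L3 replicate 2. Adult and early embryo marker genes fitted the stage labels. Summed yolk and adult cuticle genes were between 19391 and 26845 TPM (transcript levels scaled to the same sum in each library) in young adults. Elsewhere in the libraries compared they were at most 23.0 TPM. Summed early embryo genes were between 168 and 267 TPM in embryos and at most 5.43 TPM in larvae and young adults. Summed moulting genes did not separate embryos (1666 to 5281 TPM) from larvae (1905 to 5561 TPM). The first VC100 embryo library stood apart, with a summed level of 8 late embryo markers of 478 TPM against 1695 and 1749 TPM in the other VC100 libraries and 1598 and 2277 TPM in SP117. Its share in the embryo results was measured by leaving it out.

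Across the region, mRNA of SP117 stood above the X baseline in embryos and larvae and close to it in young adults. In embryos the median deviation of 251 members was 0.56 (1.47-fold), with 219 members (87.3%) above 0, while the median over all 12307 tested genes was -0.11. In L2-L3 larvae the median was 0.62 (1.54-fold) over 248 members, with 229 (92.3%) above 0, and the median over all 12870 genes was -0.0036. In young adults the median was 0.064 (1.05-fold) over 218 members, with 124 (56.9%) above 0, below the median of 0.087 over all 12827 genes. Against autosomal genes in place of the X baseline the young adult value was -0.032, so its direction depends on the baseline.

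**Figure D1:**
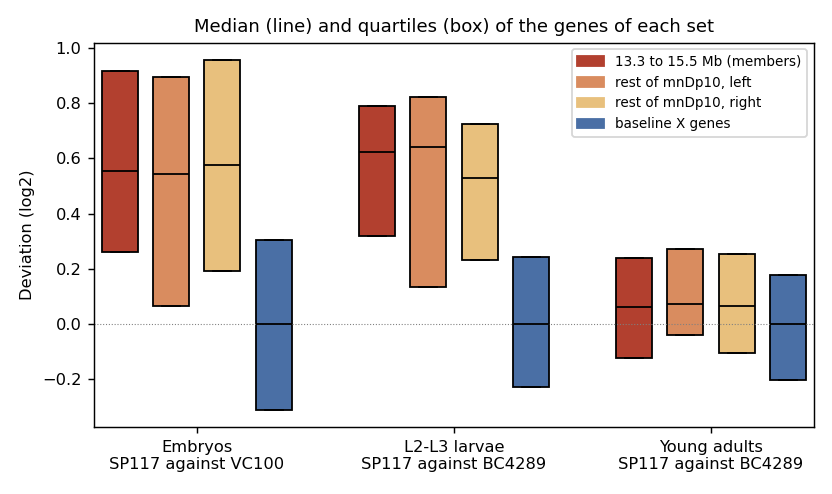
Deviation on the log2 scale (y axis) at each stage (x axis), with the median of each gene set as a line and its quartiles as a box. The members, 13.3 to 15.5 Mb, have medians of 0.56 in embryos, 0.62 in L2-L3 larvae and 0.064 in young adults, and both other stretches of mnDp10 lie close to them at each stage.

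Single libraries showed the same order. A library's score is the median over members of its log2 levels, each gene centred on the average of both group means, minus the same median over the baseline genes. The scores were 0.341 and 0.194 in SP117 embryos, against -0.353, -0.289 and -0.278 in VC100 embryos. In larvae they were 0.0899, 0.302, 0.219 and 0.547 for SP117, against -0.332 and -0.249 for BC4289. In both stages every SP117 library lay above every library of the other strain, by margins larger than the SD within groups, which was at most 0.193. In young adults the scores were 0.0176, 0.0141 and 0.0294 for SP117, against -0.0527, -0.0034 and -0.08 for BC4289. These groups did not overlap either, but the nearest libraries of SP117 and BC4289 were closer together than the BC4289 libraries were to each other.

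**Figure D2:**
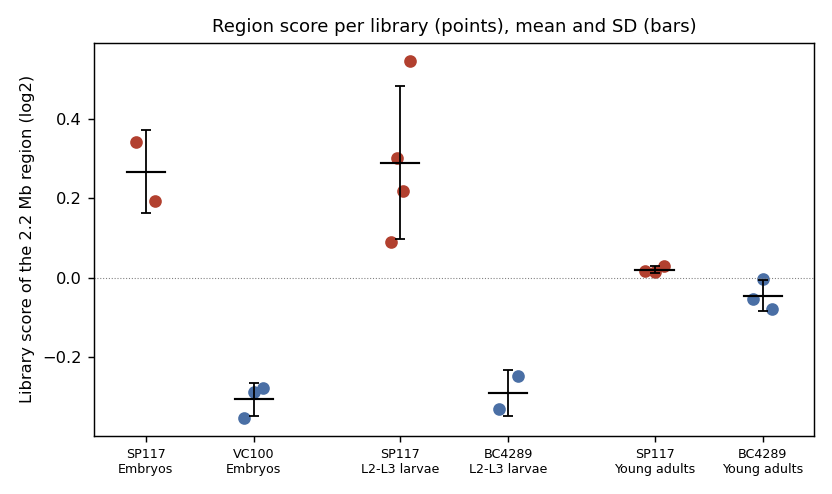
Score of the region in each library on the log2 scale (y axis), by strain and stage (x axis), with SP117 left of its same-stage strain. Points are libraries, bars the mean and SD, and the SP117 libraries lie at 0.194 or above in embryos, at 0.0899 or above in larvae and at 0.0294 or below in young adults.

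No single member passed limma's test with Benjamini-Hochberg adjustment over all genes, at any stage. The test called 8 of 12307 genes in embryos (0.065%), 5 of 12870 in larvae (0.0389%) and 14 of 12827 in young adults (0.109%), so it called few genes anywhere with 2 to 4 libraries a group. At an unadjusted p under 0.05, 43 members were higher and 3 lower in SP117 embryos, where 1.53% of all tested genes were higher and 3.61% lower. In larvae 95 members were higher and 2 lower, against 3.01% and 4.49% of all genes. In young adults the counts were 6 higher and 10 lower, against 3.77% and 4.12% of all genes.

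Counting members whose libraries did not overlap gave a like picture. Every SP117 embryo library lay above every VC100 library for 135 of 251 members (53.8%; all genes, 7.49%) and below for 3 (all genes, 17.8%). In larvae every SP117 library lay above both BC4289 libraries for 120 of 248 members (48.4%; all genes, 7.13%) and below for 3 (all genes, 12%). Both held for 81 of the 215 members tested in embryos and larvae (37.7%), against 2.11% of all 11002 such genes. In young adults 15 of 218 members lay above (6.88%; all genes, 8.59%) and 12 below (all genes, 5.57%), shares near those of all genes.

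These counts moved with single libraries, and fewer libraries overlap less often in any gene set. Leaving out each library in turn gave 141 to 199 members above (all genes, 9.12% to 29.9%) and 5 to 15 below (22% to 36%) in embryos. In larvae it gave 131 to 168 above (all genes, 8.72% to 15.5%) and 3 to 8 below (14.9% to 22.3%). Without the first VC100 embryo library the counts were 168 (all genes, 14.7%) and 5 (23.9%), and 223 of 248 members had a deviation above 0, with a median of 0.53. In young adults 16 to 40 members lay above and 14 to 56 below, while the shares of all genes ran from 9.84% to 26.6% and from 6.53% to 27.9%. The count above was 40 without SP117 replicate 2 and 32, 30 and 23 without BC4289 replicates 1, 2 and 3. The count below was 21, 19 and 24 without SP117 replicates 1, 2 and 3 and 56 without BC4289 replicate 2.

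A strain with another X duplication gave a control for embryos. TY1916 carries yDp11 (X;IV), which ends left of the region, with lon-2(e678) and unc-9(e101) on X. The paper also reports increased DNA coverage in TY1916 on chromosome IV (right arm) and chromosome V (left end). Genes there are part of the counts over all genes below. The 3 embryo libraries of TY1916 were set against the same VC100 libraries. The median deviation of 257 members was -0.31, with quartiles of -0.86 and 0.43, and the baseline itself had a median log2 ratio of 0.64. These embryos stood apart from VC100 on X genes left of 12 Mb as well, and summed early embryo markers were between 82.5 and 129 TPM in TY1916, against 188 to 267 TPM in VC100. With TY1916 in place of VC100, the median deviation of SP117 was 0.75. By log2 ratio, without the baseline subtracted, 30 members were called by limma, 25 higher and 5 lower. Of all 13226 genes, 58 were higher (0.439%) and 835 lower (6.31%) in that comparison. The part of embryo stage in these values was not tested.

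The deviation was spread over the whole region. In 11 bins of 0.2 Mb, medians in larvae ran between 0.47 and 0.72, and each bin had at least 17 members above 0. In embryos they ran between 0.28 and 0.81. The lowest was the bin at the left edge, where 14 of 23 tested members were above 0, and the highest was the bin at the right edge. In young adults bin medians ran between -0.056 and 0.18, with 3 bins below 0. The parts of mnDp10 on either side had like medians: left of 13.3 Mb they were 0.54 in embryos, 0.64 in larvae and 0.075 in young adults, and from 15.5 Mb to the end of X 0.58, 0.53 and 0.064.

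**Figure D3:**
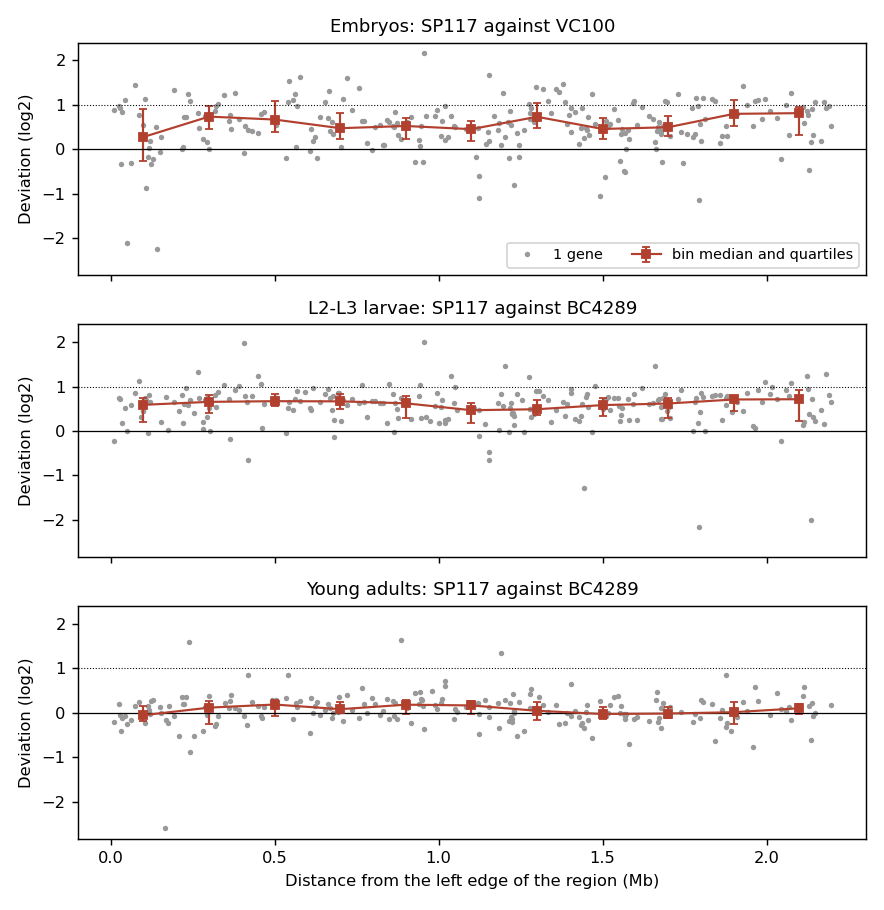
Deviation on the log2 scale (y axis) of each tested member by its distance in Mb from the left edge of the region (x axis), 1 panel per stage. Squares and bars give the median and quartiles of bins of 0.2 Mb, and the dotted line marks 1; bin medians lie between 0.28 and 0.81 in embryos, 0.47 and 0.72 in larvae and -0.056 and 0.18 in young adults.

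Single genes varied around the region median. The quartiles of the members' deviations were 0.26 and 0.92 in embryos, an interquartile range of 0.65 that was close to that of the baseline genes (0.62). In larvae the range was 0.47 for the members as well as for the baseline, and in young adults it was 0.36 and 0.38. Deviations above 1, the value in proportion to copy number, were found for 49 of 251 members in embryos (43 without the first VC100 library). They were found for 20 of 248 in larvae and 3 of 218 in young adults. Over all tested genes the counts above 1 were 433 of 12307, 222 of 12870 and 212 of 12827. Deviations below -0.5 were found for 10, 5 and 10 members, against 2342, 1418 and 906 of those genes. Across the 215 members tested in both, deviations in embryos and larvae had a Spearman's rho of 0.231 (Pearson's r 0.305), and across 1167 baseline genes 0.203 (0.098). These are descriptions across genes of the same libraries, and genes are not independent replicates. In young adults the median deviation was 0.16 for 127 members with a mean of 1 to 10 FPKM, -0.014 for 80 with 10 to 100 FPKM and -0.088 for 11 above that.

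The list of kinases and phosphatases, drawn up by gene name class, had the highest list median in larvae among lists with more than 1 tested member. It had 4 members in the region, all tested at each stage, with none called. Kinase genes with names outside those classes, such as sad-1 and mbk-1, are not in it, so it does not hold all kinases of the region. kin-20 (X, 15269057 to 15281557), a casein kinase 1 that takes part in developmental timing, had 156 and 123 FPKM in SP117 embryos, against 34.1, 83.5 and 80.8 FPKM in VC100 embryos. In larvae its levels were 85.5, 125, 103 and 134 FPKM in SP117, against 76.4 and 46.5 FPKM in BC4289. All SP117 libraries lay above at both stages, while in young adults, at 24.8, 21.5 and 25 FPKM against 19.4, 19.6 and 23.2 FPKM, the groups overlapped. The deviations of kin-20 were 1.12, 0.93 and 0.25 from embryos to young adults (standard error of the log2 ratio 0.43, 0.27 and 0.12; limma adjusted p = 0.809, 0.532 and 0.696), and 0.77 in embryos without the first VC100 library.

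gck-4, of the germinal centre kinase family, had deviations of 1.28, 0.93 and 0.12, and in embryos its first VC100 library, at 8.71 FPKM, stood far below the others, so that without it the embryo value was 0.52. akt-2, an Akt kinase of insulin signalling, had 30.1, 30.2, 22.8 and 20.4 FPKM in SP117 larvae, against 12.8 and 12.5 FPKM in BC4289 larvae, groups that did not overlap (deviation 1.05, limma adjusted p = 0.385). In young adults its deviation was -0.15. cdk-4, a G1 cyclin-dependent kinase, had deviations of 0.017 in embryos, 0.82 in larvae and 0.36 in young adults. The 4 list members had a median of 0.87 in embryos, 0.93 in larvae and 0.18 in young adults, and of 0.63 in embryos without the first VC100 library.

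Channel, gap junction and transmitter receptor genes had the highest list median in embryos. Of the 10 genes of this name-class list in the region, 6 were tested in embryos (median 1.13), 8 in larvae (0.81) and 4 in young adults (0.23). Every one was above 0 and none was called. Without BC4289 young adult replicate 2 the young adult median was 0.089, with 3 of 4 above 0, and without SP117 L2-L3 replicate 4 the larval median was 0.71, with 7 of 8 above 0. The innexin gene unc-7 had deviations of 1.12, 0.79 and 0.19, and the tyramine receptor gene ser-2 had 1.13 and 1.10 in embryos and larvae. Outside this list, nlg-1, which codes for neuroligin, a synaptic adhesion protein, had 28.2 and 13.7 FPKM in SP117 embryos, against 5.65, 12.4 and 11.5 FPKM in VC100 embryos. In larvae nlg-1 had 29.0, 40.8, 26.7 and 30.9 FPKM in SP117, against 15.9 and 19.5 FPKM in BC4289. SP117 lay above in every library at both stages, with deviations of 1.01 and 0.88, while in young adults nlg-1 was near 3 FPKM in both strains with a deviation of -0.072. The embryo value of nlg-1 includes the first VC100 library, at 5.65 FPKM the lowest, and no value without it is given here. slt-1, which codes for the guidance cue Slit, had 42.4 and 17.6 FPKM in SP117 embryos, against 4.74, 12.6 and 14.2 FPKM in VC100 embryos (deviation 1.46, 1.04 without the first VC100 library), and fell short of the filter in young adults. rbc-1, a rabconnectin gene, had deviations of 1.36 in embryos (0.72 without that library), 0.79 in larvae and 0.18 in young adults.

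Neuropeptide, hormone and related receptor genes numbered 8 in the region. Of these, 5 were tested in embryos (median 0.23, 5 above 0), 7 in larvae (0.50, 6 above 0) and 4 in young adults (-0.46, 1 above 0), with none called. Without the first VC100 library the embryo median was 0.60, and without SP117 L2-L3 replicate 4 the larval median was 0.29. The larval exception was flp-32. flp-32, which codes for an FMRFamide-like peptide, had 7.42, 1.41, 12.4 and 3.27 FPKM in SP117 larvae, against 13.8 and 26.9 FPKM in BC4289 larvae. Every SP117 library lay below both BC4289 libraries, with a deviation of -2.0 (standard error of the log2 ratio 0.80, limma adjusted p = 0.638), and the SP117 libraries themselves lay far apart. In embryos, near 1 FPKM, its deviation was 0.16. The peptide gene nlp-53 stood with the other members instead, at 0.87, 0.80 and -0.30.

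Transcription factor genes lay around the region median. The name class held 18 members, with medians of 0.56 over 16 tested in embryos, 0.63 over 14 in larvae and 0.058 over 12 in young adults, and none called; it includes daf-6, which is a Patched-related membrane protein and not a transcription factor. unc-3, a COE-family factor of motor neuron identity, is mutant on the X chromosomes of SP117 and has its wild-type copies on mnDp10, which the levels do not tell apart. unc-3 (X, 14773297 to 14783498) had 6.79, 8.86, 8.27 and 15.5 FPKM in SP117 larvae, against 4.27 and 5.26 FPKM in BC4289 larvae, without overlap (deviation 1.02, limma adjusted p = 0.582). In embryos it had 23.5 and 13.3 FPKM in SP117, against 8.26, 13.9 and 13 FPKM in VC100, which overlapped (deviation 0.57). In young adults unc-3 was between 0.383 and 0.624 FPKM in both strains and was not tested.

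mxl-3, a Max-like factor linked to fat metabolism on fasting, had 27.1 and 14.4 FPKM in SP117 embryos, against 62.1, 148 and 59.8 FPKM in VC100 embryos. It was the named member farthest below the baseline in embryos, with both SP117 libraries below all of VC100 and a deviation of -2.10 (standard error 0.48, limma adjusted p = 0.62). In larvae the mxl-3 groups overlapped and the deviation was 0.012, and in young adults it was -0.26. elt-3, a GATA factor of the epidermis, had 0.74, 0.66 and -0.042, while the homeodomain gene ceh-36 had 0.24, 0.75 and 1.64. In young adults ceh-36 was low, at 1.69, 1.78 and 2.53 FPKM in SP117, against 0.489, 0.909 and 0.455 FPKM in BC4289, without overlap (limma adjusted p = 0.352).

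egrh-1, an early growth response zinc finger gene, was 1 of 5 members, of 174 tested at all 3 stages, whose SP117 libraries all lay above at every stage, as they did for 22 of 10037 genes in all (0.219%). Its levels were 46.1 and 44.8 FPKM in SP117 embryos, against 24.7, 30.7 and 27.8 FPKM in VC100 embryos. In larvae they were 21.8, 22.5, 16.9 and 28.4 FPKM, against 11.1 and 16.7 FPKM in BC4289, and in young adults 11.8, 10.0 and 10.3 FPKM, against 8.45, 9.10 and 8.14 FPKM in BC4289. The gap was smallest in young adults, with deviations of 0.66, 0.74 and 0.37 (limma adjusted p = 0.809, 0.638 and 0.63). The other 4 such members, F18H3.4, obr-3, C31E10.6 and eor-2, had deviations between 0.29 and 0.35 in young adults.

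Several members outside the lists lay at different distances from the baseline. unc-84, which codes for a SUN protein of the nuclear envelope, and alg-1, an Argonaute of the microRNA pathway, had deviations of 0.75, 0.70 and 0.13, and of 1.07, 0.84 and 0.062. cytb-5.1, a cytochrome b5 gene among the 8 most abundant members, had deviations of 0.051, 0.22 and 0.11, and overlaps tbc-19. Its embryo value was 0.37 without the first VC100 library and its larval value 0.027 without SP117 L2-L3 replicate 4. vha-20, a vacuolar ATPase gene, had 283 and 224 FPKM in SP117 embryos, against 157, 182 and 175 FPKM in VC100 embryos. In larvae vha-20 had 319, 321, 312 and 321 FPKM in SP117, against 323 and 341 FPKM in BC4289, so SP117 lay above in embryos and just below in larvae, with deviations of 0.50 and -0.012. gcsh-1, of the glycine cleavage system, had -0.20, -0.024 and -0.19, and Y15E3A.5 had -0.23, -0.23 and 0.077.

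The enzyme genes tatn-1 and cyp-13B1 lay on opposite sides of the baseline at successive stages. tatn-1, a tyrosine aminotransferase, had 20.8 and 16.1 FPKM in SP117 embryos, against 40.3, 43.3 and 28.1 FPKM in VC100 embryos. In larvae it had 201, 233, 169 and 247 FPKM in SP117, against 161 and 130.5 FPKM in BC4289. SP117 was lower in every embryo library and higher in every larval library, with deviations of -1.05 and 0.58, and the embryo deviation was 0.074 with TY1916 in place of VC100. cyp-13B1, a cytochrome P450 gene, had 8.19 and 8.79 FPKM in SP117 embryos, against 18.1, 10.6 and 17.3 FPKM in VC100 embryos, and 9.55, 9.64, 11 and 7.62 FPKM in SP117 larvae, against 5.98 and 5.80 FPKM in BC4289 larvae. Its deviations were -0.86 and 0.71, and neither gene was called.

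The members with the largest larval deviations had no assigned role here. E02H4.7 (X, 14256202 to 14257353) had 33.4, 33.4, 19.8 and 36.1 FPKM in SP117 larvae, against 6.18 and 9.51 FPKM in BC4289 larvae. K02D3.1 had 16.8, 22.8, 12.6 and 16.3 FPKM in SP117 larvae, against 3.88 and 4.78 FPKM in BC4289 larvae. Both gaps exceeded the spread within strains, with deviations of 2.0 and 1.98 (limma adjusted p = 0.226 and 0.133), above the value in proportion to copy number. K02D3.1 stood near the baseline in embryos (-0.084) and young adults (-0.066). E02H4.7 had a deviation of -0.37 in young adults. In embryos it had 4.23 and 1.66 FPKM in SP117, against 2.90, 0 and 0.596 FPKM in VC100, groups that overlapped, and its deviation of 2.16 (standard error of the log2 ratio 1.38) was the highest of all members there, and 3.40 without the first VC100 library. idpp-3 had a larval deviation of 1.47 (limma adjusted p = 0.26) and an embryo deviation of 0.15.

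**Figure D4:**
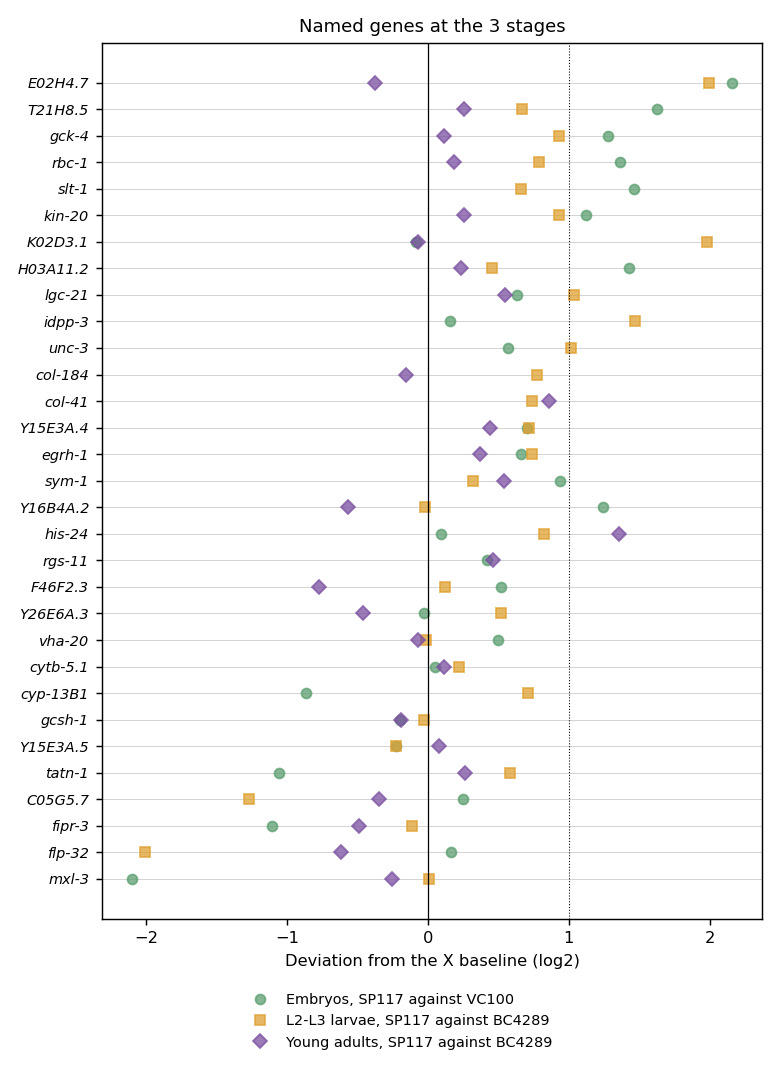
Deviation on the log2 scale (x axis) of the 31 named genes (y axis) in embryos, L2-L3 larvae and young adults, ordered by their mean in embryos and larvae. For kin-20 the values are 1.12, 0.93 and 0.25 and for his-24 0.096, 0.83 and 1.35, and the dotted line marks 1.

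his-24, a linker histone H1 gene and the second most abundant member, ran in the reverse order of stages. It had 6823 and 8602 FPKM in SP117 embryos, against 5627, 8243 and 7040.4 FPKM in VC100 embryos, which overlapped. In larvae it had 248, 374, 245 and 803 FPKM in SP117, against 186 and 246 FPKM in BC4289, and in young adults 153, 99.4 and 173 FPKM in SP117, against 50.5, 104 and 33.4 FPKM in BC4289. The deviations were 0.096, 0.83 and 1.35 (standard error 0.33, 0.48 and 0.43; limma adjusted p = 0.9, 0.794 and 0.577), and the larval value was 0.44 without SP117 L2-L3 replicate 4. The groups overlapped at each stage, in young adults through BC4289 replicate 2 alone. Without that library, which made the overlap, the deviation was 1.95 and his-24 was called (limma adjusted p = 0.0455). That fit called 378 genes in all, against 14 with all libraries, so the call is not particular to his-24.

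The germline genes meg-1 and meg-2, which code for P granule proteins, were at most 0.458 FPKM in larvae of both strains. meg-1 had 74.8, 74.0 and 74.6 FPKM in SP117 young adults, against 63.4, 73.6 and 58.9 FPKM in BC4289 young adults. In embryos meg-1 had 56.1 and 80.9 FPKM in SP117, against 62.1, 82.7 and 79.2 FPKM in VC100. The SP117 values lay above in adults and overlapped in embryos, with deviations of 0.25 and -0.19, and meg-2 had 0.16 and 0.27.

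C05G5.7, annotated over 111 bases, dominated the summed larval level. It had 14208, 7462, 19583 and 7438 FPKM in SP117 larvae, against 22869 and 33776 FPKM in BC4289 larvae, with all SP117 libraries below (deviation -1.27, limma adjusted p = 0.554). FPKM of so short a gene depends strongly on its assumed length. Summed TPM of all members, as a percent of that of the baseline genes, was 30.8, 26.6, 38.3 and 35.5 in SP117 larvae, against 36.4 and 47.1 in BC4289 larvae. Without C05G5.7 it was 15.8, 18.2, 16.9 and 27.1 in SP117 larvae, against 12.5 and 13.7 in BC4289 larvae, so the order of the strains turned with this gene. In embryos the percentages were 33.4 and 33.7 in SP117, against 21.7, 25.9 and 24.2 in VC100. In young adults they were 9.21, 9.49 and 9.44 in SP117, against 10.3, 9.61 and 10.1 in BC4289, with SP117 below in every library. These sums include the abundant gene col-184, with young adult means of 1429 FPKM in SP117 and 1653 FPKM in BC4289, and were not taken without it. The median deviation of the members in young adults was 0.064.

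The cuticle genes of the region include collagen genes with a level at some stages only. The list of 12 members had medians of 1.00 over 6 tested in embryos, 0.68 over 8 in larvae and 0.21 over 7 in young adults, with none called. The young adult median was -0.023 without BC4289 replicate 2, so its direction rests on that library. The list includes sym-1, a gene for a leucine-rich repeat protein that overlaps bltp-3B, at 0.94 (0.57 without the first VC100 library), 0.32 and 0.54 (0.21 without BC4289 replicate 2), and the moulting gene mlt-9 at 1.15, 0.77 and 0.24. The collagen gene col-184 had 1402, 1411 and 1475 FPKM in SP117 young adults, against 1647, 1609 and 1701 FPKM in BC4289 young adults, and at most 5.71 FPKM in larvae. All SP117 adult libraries lay below (deviation -0.15, and -0.028 without BC4289 replicate 2). col-41, a larval collagen gene within the span of ucr-2.2, had 1335, 1845, 1489.8 and 1169 FPKM in SP117 larvae, against 1328 and 597 FPKM in BC4289 larvae, which overlapped (0.74). Collagen genes share sequence, so reads may be split among copies.

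Besides col-184, 3 named members had all SP117 libraries below BC4289 in young adults. Y16B4A.2 had 25.7, 29.3 and 25.9 FPKM in SP117, against 53.7, 36 and 36.8 FPKM in BC4289 (deviation -0.57, limma adjusted p = 0.455), while in embryos its SP117 libraries lay above. Y26E6A.3 had 15.7, 15.5 and 14.6 FPKM in SP117, against 24.9, 17.5 and 23.9 FPKM in BC4289 (deviation -0.46, limma adjusted p = 0.513, and 0.0401 without BC4289 replicate 2). The fit without that library called 378 genes in all. F46F2.3 had 351, 392 and 308 FPKM in SP117, against 498, 1092 and 433 FPKM in BC4289. The deviation of F46F2.3 was -0.77, and -0.21 without BC4289 replicate 2.

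**Figure D5:**
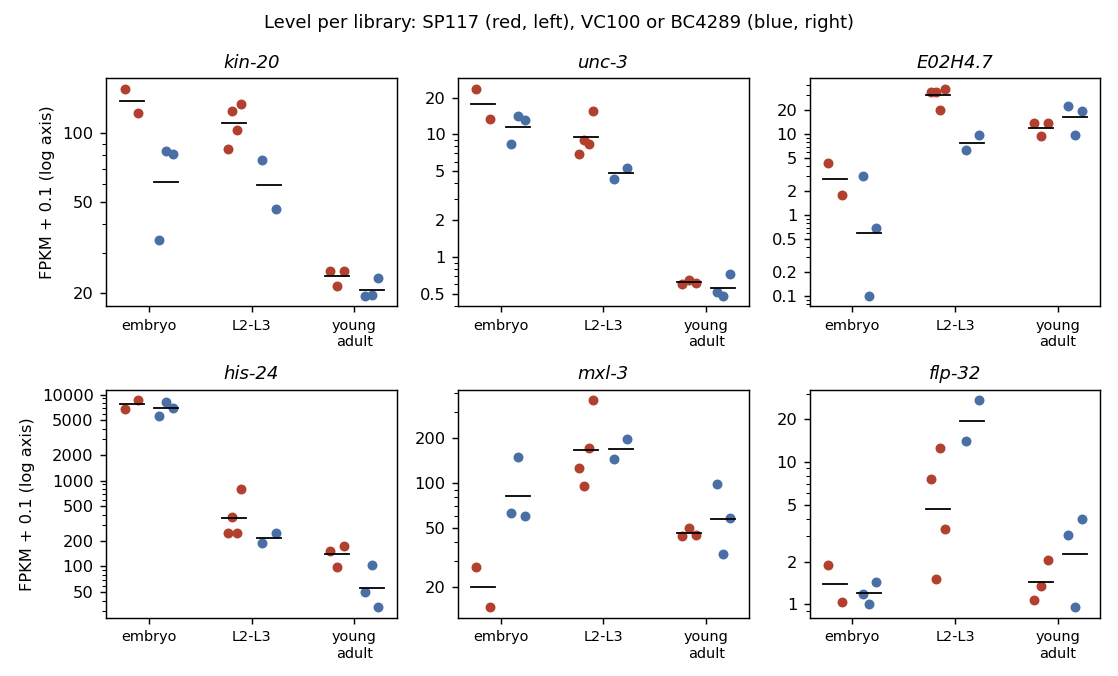
FPKM + 0.1 on a log axis (y axis) in each library by stage (x axis) for 6 members, with SP117 as red points at the left and VC100 or BC4289 as blue points at the right of each stage, and bars for the geometric means. The SP117 points of kin-20 lie above those of the other strain in embryos and larvae, and those of mxl-3 in embryos (27.1 and 14.4 FPKM) and flp-32 in larvae lie below.

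The change from larvae to young adults was compared between strains, over SP117 (4 and 3 libraries) and BC4289 (2 and 3). In the test of young adults against larvae within SP117, 24 of 265 members were higher and 204 lower (limma, adjusted p under 0.05), where 36.7% of all genes were higher and 40.1% lower. Within BC4289, 33 of 253 members were higher and 165 lower, where 36.7% of all genes were higher and 37.3% lower. The median log2 change of the members was -1.76 in SP117, against -1.14 in BC4289, while for the baseline genes it was -1.15 in SP117 and -1.10 in BC4289. kin-20 fell in both strains, by 2.21 on the log2 scale in SP117 (limma adjusted p = 1.77e-05) and by 1.53 in BC4289 (limma adjusted p = 0.00316). unc-3 fell by 3.92 in SP117 (limma adjusted p = 1.68e-05) and by 3.10 in BC4289 (limma adjusted p = 0.00132). E02H4.7 fell by 1.32 in SP117 (limma adjusted p = 0.00165) and had a log2 change of 1.06 in BC4289 (limma adjusted p = 0.0655). E02H4.7 was named for its larval gap between the strains. Both of its changes use those larval libraries, so part of the difference between them follows from that choice.

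The difference between these changes was tested gene by gene as an interaction of strain and stage. Relative to the baseline, the median over 260 members was -0.50, with 38 members above 0. None was called by limma, where 4 of 13740 genes were (0.0291%). At an unadjusted p under 0.05, 62 members had a lower value and 1 a higher value, against 2.43% and 4.64% of all genes. Of the 174 members tested at all 3 stages, 152 had a smaller deviation in young adults than in larvae and 145 a smaller one than in embryos. Of the same 174, 87 were above 0 at all 3 stages, and 60 were above 0 in embryos and larvae and below 0 in young adults. These counts were not made over all genes. Of all tested genes, 40.9% were above 0 in embryos, 49.5% in larvae and 62.2% in young adults. Embryo deviations are against VC100 and the others against BC4289, so strain and stage cannot be told apart between them. The 2 members below 0 at all 3 stages were fipr-3, of a fungus-induced gene family, and gcsh-1. The embryo value of gcsh-1 was 0.015 without the first VC100 library, and the larval values of fipr-3 and gcsh-1 were 0.35 and 0.31 without SP117 L2-L3 replicate 1. Summed oocyte and germline markers were between 2134 and 2399 TPM in SP117 young adults, against 1830 and 2453 TPM in BC4289 young adults (3 libraries each, lowest and highest), and between 57.9 and 76.5 TPM in larvae of both strains. Summed sperm markers were between 614 and 765 TPM (median 731) in SP117 young adults, against 460 to 1370 TPM (median 1287) in BC4289 young adults. Whole animals were sequenced, so fewer cells of a type and less RNA per cell cannot be told apart, and the part of oocytes, sperm and other germline cells in the young adult values was not tested.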

How the data were processed

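Of the 41 samples of the series, 23 are mRNA-seq libraries with a deposited file, and 17 of these entered the 3 strain comparisons. The authors aligned reads with HISAT2 2.2.1 to WS220 (ce10) and made the deposited FPKM values with Cufflinks 2.2.1. The deposited TPM values are the same FPKM values that the authors rescaled to a fixed sum per library. The 3 embryo libraries of TY1916 served as a control and as an alternative. Read counts, the 3 OP37 libraries and DNA sequencing were not used here, so relative depth was read from the steps between low FPKM values, and it limits precision for low genes. Coordinates are those of WS220, and names came by identifier from a RefSeq WBcel235 table, which matched 19880 identifiers (97.5%) and 353 of 362 members. Of 20390 listed genes, 51 with a failed estimate (none a member) and 12 mitochondrial genes were left out. Levels were tested as log2(FPKM + 0.1) with limma 3.58.1 (trend) in R 4.3.3, each comparison on its own libraries, for all genes with a mean of at least 1 FPKM, with Benjamini-Hochberg adjustment over all genes and a threshold of 0.05. The interaction used the larval and young adult libraries of both strains. The fit was tested on simulated data. Alternatives were other pseudocounts (0.01 and 1), filters (none, at least 5 FPKM), quantile normalization, centring on baseline X genes, an autosomal baseline, no trend, TY1916 as the compared strain, all libraries in one fit, a replicate block and leaving out each library. P-values measure the spread between these libraries only.

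The members and lists were chosen with earlier results of these data known. Genes were named by a rule: unc-3, any called member, the 6 highest and 6 lowest mean deviations among 96 members with at least 5 FPKM in all 6 groups, the 8 most abundant, and per comparison the 3 largest non-overlapping deviations in each direction at 5 FPKM or more, 31 genes in all. Further genes (alg-1, unc-84, nlg-1, akt-2, cdk-4, unc-7, ser-2, nlp-53, elt-3, ceh-36, meg-1, meg-2, mlt-9, daf-6, sucl-1, idhb-1 and those above at all 3 stages) were chosen after their values were seen. Embryo deviations of these genes include the first VC100 library, and values without it are not given. Gene lists were drawn up by name class, so genes of like function with other names are not in them.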

Additional observations from a re-analysis of the deposited data

Results flagged for a closer look

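Over the 4 SP117 larval libraries, 31 named genes and 3 summary values of the region were tested, 34 tests in all, and 6 of them, all of named genes, had a gap between an end library and its neighbour above Dixon's critical value of 0.829 of the group's range, and chance gives about 1 in 20. The share was 0.848 for col-184 and 0.831 for E02H4.7, both with replicate 3 lowest. It was 0.914 for T21H8.5 and 0.946 for F46F2.3, both with replicate 4 highest, where F46F2.3 had 8019 FPKM against 1742 to 2083 FPKM in the other SP117 libraries. It was 0.87 for fipr-3, and 1.0 for rgs-11, a regulator of G protein signalling listed at 0 in 3 libraries and at 0.205 FPKM in replicate 4.

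In 4 of the 31 named genes all SP117 libraries lay on opposite sides of the other strain at different stages, and the other strain differs between those stages. Each of the 4 had been named in part because its libraries did not overlap at a stage. The remaining members and all other genes were not searched for this pattern. The log2 ratio in embryos minus that in larvae was -1.467 for cyp-13B1, -1.532 for tatn-1 and 0.617 for vha-20. The log2 ratio in embryos minus that in young adults was 1.92 for Y16B4A.2. These differences were not tested.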

How the results depend on the processing

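The median deviation of the members kept its sign under every alternative in embryos, larvae and the interaction. In embryos (0.56) it was 0.75 against TY1916 and 0.71 over autosomal genes, and 0.50 to 0.67 without single libraries. In larvae (0.62) it was 0.50 to 0.67 and in the interaction (-0.50) -0.58 to -0.40 without single libraries. In young adults (0.064) it was 0.042 to 0.13 without single libraries, but -0.032 over autosomal genes.

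No member was called in the main comparisons. Against TY1916, 30 of 264 members were called in embryos, where 893 of all 13226 genes were. With all libraries in one fit, 3 of 251 members were called in embryos (sucl-1, idhb-1 and gem-1), where 79 of all 12307 genes were. In larvae 1 of 248 members was called in this way (K02D3.1, limma adjusted p = 0.019), where 27 of all 12870 genes were. Without single libraries the counts were 0 to 0 in embryos and larvae, 0 to 5 in young adults and 0 to 1 in the interaction. The young adult count was 5 of 221 members without BC4289 replicate 2, where 378 of all genes were called. These 5 were his-24, cah-4, ucr-2.2, T10B10.4 and Y26E6A.3. The interaction count was 1 without SP117 L2-L3 replicate 3 (col-184).

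Counts over all genes moved most. In embryos (8 genes) they were 893 against TY1916, 79 in one fit, 31 with centring on X, 3 at a mean of 5 FPKM, 14 with quantile normalization, 15 with the replicate block and 13 without trend, and 0 to 21 without single libraries. In larvae (5 genes) they were 27 in one fit, 3 at 5 FPKM, 2 and 13 with pseudocounts of 0.01 and 1, 3 with quantile normalization and 3 without trend, and 0 to 7 without single libraries. In young adults (14 genes) they were 34 with centring on X, 9 at 5 FPKM, 9 without filter and 7 without trend, and 0 to 378 without single libraries (378 without BC4289 replicate 2, 58 higher and 320 lower). In the interaction (4 genes) they were 7 with either pseudocount, 1 with the replicate block, and 0 to 10 without single libraries. The cause was not tested.

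Of 1451 values of the named genes under alternatives, 62, in 17 genes, had the opposite sign, 8 of them against TY1916. Of these, flp-32 passed the test, with an embryo log2 ratio of -2.40 against TY1916 (limma adjusted p = 0.022). Its deviation there was -1.92 in place of 0.16. Libraries with the same replicate number had correlations of -0.121 and -0.065 in embryos and -0.046 and 0.009 in larvae. With 2 libraries in a group (SP117 embryos, BC4289 larvae), departures from the group mean mirror each other, so these values cannot show pairing. In young adults the correlations were 0.041, 0.234 and 0.058, against -0.207 to 0.203 for different numbers. Whether the numbers pair the libraries stayed undecided. The replicate block gave region medians of 0.50 in larvae and -0.39 in the interaction. The counts without VC100 embryo replicate 1, SP117 L2-L3 replicate 2 or BC4289 young adult replicate 2 and the sums without C05G5.7 were added after seeing the data. With 2 to 4 libraries a group and unknown read counts, few single genes were called in the main comparisons. No low member was called, and neither were well expressed members such as kin-20 in larvae (mean 95.1 FPKM, limma adjusted p = 0.532). How detection depended on level was not tested.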

Other observations

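Members of other lists were few. Of 11 chemoreceptor genes in the region, 1 passed the filter, in larvae, with a deviation of 0.89. The 5 genes of ubiquitin and proteasome functions had 2 tested in embryos, with a median of 0.16, or 0.55 without the first VC100 library. The 3 genes of lipid and detoxification enzymes had 2 tested in embryos, with a median of -0.57, or -0.32 without that library.

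The enzyme genes sucl-1, a succinyl-CoA ligase, and idhb-1, an isocitrate dehydrogenase, were among the members called in embryos with all libraries in one fit. Their deviations were 0.73 and 0.59 in embryos, 0.55 and 0.49 in larvae and -0.16 and -0.15 in young adults. By level, embryo medians were 0.68 for 101 members with a mean of 1 to 10 FPKM, 0.53 for 124 with 10 to 100 FPKM and 0.50 for 26 above that. In larvae they were 0.58 over 101, 0.69 over 112 and 0.41 over 35 members.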
